A study of Mus musculus with 840 samples.

Results

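Wnt signalling genes were followed in mammary cells in which a constitutively active Notch1 receptor had been switched on. The set held 10 genes: the ligands Wnt6, Wnt10a and Wnt11, the receptors Lgr4, Lgr5, Lgr6 and Procr, and the target and nuclear genes Axin2, Lef1 and Tcf7l1. They were chosen by symbol, with earlier results of these data known. All 10 symbols matched a row among the 39154 genes of the deposited Smart-seq2 count matrices, and all 10 were among the 19796 genes that passed the filter on low counts. Smart-seq2 gives full-length cDNA from single sorted cells without molecular identifiers, so every value below counts reads and every interval covers counting error only.

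The mice carried a Rosa-N1ICD-IRES-nGFP allele (the intracellular domain of Notch1 with a nuclear GFP reporter) together with either SMACreERT2 (label SMA_NIC) or K5CreERT2 (label K5_NIC), both of which act in basal cells after tamoxifen. Tamoxifen was given at P21, and the glands were taken 1, 3, 4 or 6 weeks later for SMACreERT2 and 3 weeks later for K5CreERT2. Cells were index-sorted by EPCAM and CD49f into basal, intermediate and luminal gates. Each was split into GFP+ cells, which had recombined, and GFP- cells from mice of the same genotypes, which served as the unrecombined controls. The labels do not tie a cell to a mouse, so the 96-well plate was used as the replicate, and whether plates share mice is not known. The fit takes out each plate's own level, so p-values measure how far the differences between groups vary from plate to plate.

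Of 744 cells on 8 plates, 68.7% passed the study's quality filters. The groups held 100 basal GFP+ cells on 5 plates, intermediate GFP+ cells on 7 plates (4, 3, 13, 19, 60, 63 and 61 cells on plates 1, 2, 3, 4, E, G and L), 120 luminal GFP+ cells on 6 plates, 17 basal GFP- cells on 3 plates, 12 intermediate GFP- cells on 2 plates and 39 luminal GFP- cells on 7 plates, counting plates with at least 3 kept cells of the group. The 100 basal and 120 luminal GFP+ cells include 2 each from plate 2, which enter the shares of cells and the levels pooled by chase but not the sums by plate or the tests. Plates 1 (1 week), 2 and 3 (3 weeks), 4 (4 weeks), 5 (6 weeks) and E (3 weeks) were SMACreERT2, and plates G and L were K5CreERT2. The chase of plate L is given as 3 weeks in its annotation and as 6W in its sample name, so it is called a K5CreERT2 plate without weight on the time. Median depth was 402767, 397250 and 1499629 reads per cell in sequencing batches 1, 2 and 3, and plates E, G and L form batch 3, so Cre line and batch cannot be told apart for the GFP+ basal and luminal gates.

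Before the members were read, the gates were checked against cell type markers, and several plates stood apart. Basal GFP+ cells of plate L had Krt5 at 1.12 CPM (reads per 1000000 reads on genes) and Myh11 at 3.66 CPM, whereas Krt5 lay between 628.1 and 1203 CPM in the other basal GFP+ sums, and Myh11 was 3.52 CPM in those of plate G. All 10 basal markers were read in both sums. They came to 8645 CPM on plate G and 3571 CPM on plate L (Krt14 at 3578 and 1602 CPM), beside 14577, 15044 and 22724 CPM on plates 1, 3 and 4. The 4 intermediate GFP+ cells of plate 1 carried 1725 CPM of the 4 endothelial markers, all 4 of them read, with Vwf the most abundant at 687 CPM, and the basal GFP+ cells of the same plate carried 741.4 CPM. By the study's methods, cells stained for CD31 (Pecam1, endothelial), CD45 (Ptprc, immune) or Ter119 (erythroid) had been gated out in the sort. Luminal GFP+ cells of plate 1 had 26188 CPM of the salivary gene Bpifa2, with Dcpp2, Dcpp3 and Smgc at 0. The immune markers summed to 2001 CPM in intermediate GFP- cells of plate L, of which Cd74 made 1623 CPM. Krt79, a keratin of the sebaceous and hair follicle ducts, reached 357.9, 488.9 and 743.6 CPM in the intermediate GFP+ cells of plates E, G and L and led a list of 5 sebaceous genes that summed to 365.96, 550.2 and 801.2 CPM there, with 3, 4 and 5 of the 5 genes read. It was not limited to that gate, at 484.8 CPM in basal GFP+ and 818.5 CPM in luminal GFP- cells of plate L and 325.2 CPM in basal GFP- cells of plate G. The 10 basal markers summed to 2154 CPM in those luminal GFP- cells of plate L (Krt14 at 803.2 CPM) and to at most 294.4 CPM in the other luminal GFP- sums, and in luminal GFP+ cells to 1308, 354.1, 1932, 76.9, 156.8 and 1293 CPM on plates 1, 3, 4, 5, G and L, led by Krt17 on all but plate G. The 10 markers of hormone receptor-negative luminal cells summed to 6829, 14496 and 12944 CPM in luminal and to 1320, 1917 and 882.1 CPM in intermediate GFP+ cells of plates 1, 3 and 4. The 7 hair follicle markers summed to 517.9 CPM in intermediate GFP+ cells of plate 1, all of it Cd34, which endothelial cells also express, and to 122.4 CPM in intermediate GFP- cells of plate G (Krt75 at 97.8 CPM, 3 of 7 read), the sum with the higher Wnt10a of that group. The 4 intermediate GFP+ cells of plate 1 also held 3480 CPM of 10 markers of hormone receptor-positive luminal cells (9 of 10 read, Prlr at 1489 CPM, Tnfsf11 at 0). Fibroblast markers summed to at most 232.4 CPM and epidermal markers to at most 65.5 CPM in any sum. The part of these sums in the results below was not tested beyond leaving them out.

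Canonical Wnt ligands bind a Frizzled receptor and an LRP co-receptor and so stop the destruction of beta-catenin, which then works with TCF/LEF factors on target genes. Lgr4, Lgr5 and Lgr6 are receptors for R-spondins, which raise the number of Frizzled receptors on the cell surface. In the mammary gland, basal cells are known as the Wnt-responsive compartment, and Lgr5 and Procr have been used to mark basal cells with stem cell activity.

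Promoter windows are shown for 4 members to let the levels be read next to the sequence that precedes each gene. Of the 10 members, 8 were matched in the promoter table used, made from RefSeq (GRCm38.p6), and Lgr5 and Wnt10a were not matched. Each window holds the 250 bases before the annotated start, 5′ to 3′ on the gene's strand, with the first match to a searched motif in capitals. The motifs, searched on both strands, were CTTTGAT and CTTTGAA, cores bound by TCF/LEF factors, and TGGGAA, a core bound by RBPJ, the DNA-binding partner of the Notch intracellular domain. Among 32851 mouse promoter windows of the same length, 3.21% held the first, 4.46% the second and 21.6% the third. Of the 12 windows of the 8 members, 3 held a match, which describes the letters only. Wnt11 had another window, at 98838595 to 98838844, which held no match and is not shown.
Wnt11 (chr7:98834862-98835111, plus strand, ATCAAAG, the reverse complement of CTTTGAT, 51 bases upstream): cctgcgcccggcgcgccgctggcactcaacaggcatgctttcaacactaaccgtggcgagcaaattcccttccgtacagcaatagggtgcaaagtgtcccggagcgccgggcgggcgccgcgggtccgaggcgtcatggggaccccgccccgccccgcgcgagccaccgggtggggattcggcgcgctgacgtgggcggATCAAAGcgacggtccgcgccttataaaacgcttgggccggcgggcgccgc
Lgr6 (chr1:135105277-135105526, minus strand, TGGGAA): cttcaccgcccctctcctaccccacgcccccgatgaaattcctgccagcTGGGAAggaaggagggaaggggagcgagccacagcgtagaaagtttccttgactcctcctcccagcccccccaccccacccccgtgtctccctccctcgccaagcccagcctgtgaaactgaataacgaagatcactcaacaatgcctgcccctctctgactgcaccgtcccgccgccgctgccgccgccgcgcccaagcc
Tcf7l1 (chr6:72789046-72789295, minus strand, TTCCCA, the reverse complement of TGGGAA, 55 bases upstream): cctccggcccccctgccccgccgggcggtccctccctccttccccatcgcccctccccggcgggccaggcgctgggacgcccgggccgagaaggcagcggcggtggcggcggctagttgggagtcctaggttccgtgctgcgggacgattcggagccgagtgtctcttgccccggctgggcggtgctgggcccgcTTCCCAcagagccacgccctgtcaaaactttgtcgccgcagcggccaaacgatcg
Axin2 (chr11:108920099-108920348, plus strand, no match): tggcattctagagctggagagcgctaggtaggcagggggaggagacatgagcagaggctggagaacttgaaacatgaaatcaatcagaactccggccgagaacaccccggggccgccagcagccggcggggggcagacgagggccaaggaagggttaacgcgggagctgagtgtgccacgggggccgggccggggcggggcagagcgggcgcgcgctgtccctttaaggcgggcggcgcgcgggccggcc

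Read counts were summed over the kept cells of a gate and GFP state on 1 plate. Such a sum cannot tell fewer expressing cells from less RNA per cell, so the share of cells with a read is given beside it. Per length, as CPM per 1000 bases of exon (RPKM), the basal GFP+ means were 20.1 ± 13.3 for Lgr5, 19 ± 5.84 for Lgr4 and 18.7 ± 10.1 for Lgr6 (SD, n = 5 plates), followed by 13.8 ± 8.39 for Wnt11. Tcf7l1 (7.02 ± 4.87 RPKM), Procr (6.51 ± 4.59 RPKM) and Wnt10a (4.21 ± 3.83 RPKM) were lower-valued, with SDs that overlapped one another. Axin2 (1.25 ± 0.824 RPKM), Wnt6 (0.256 ± 0.355 RPKM) and Lef1 (0.0162 ± 0.0301 RPKM) stood last. In luminal GFP+ cells (n = 6 plates) the order opened with Lgr6 at 10.2 ± 6.20 RPKM, Lgr4 at 7.71 ± 3.42 RPKM and Tcf7l1 at 6.10 ± 6.92 RPKM, and Lgr5 stood at 0.393 ± 0.815 RPKM. The first 3 genes of each order did not differ beyond their spread.

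**Figure D1:**
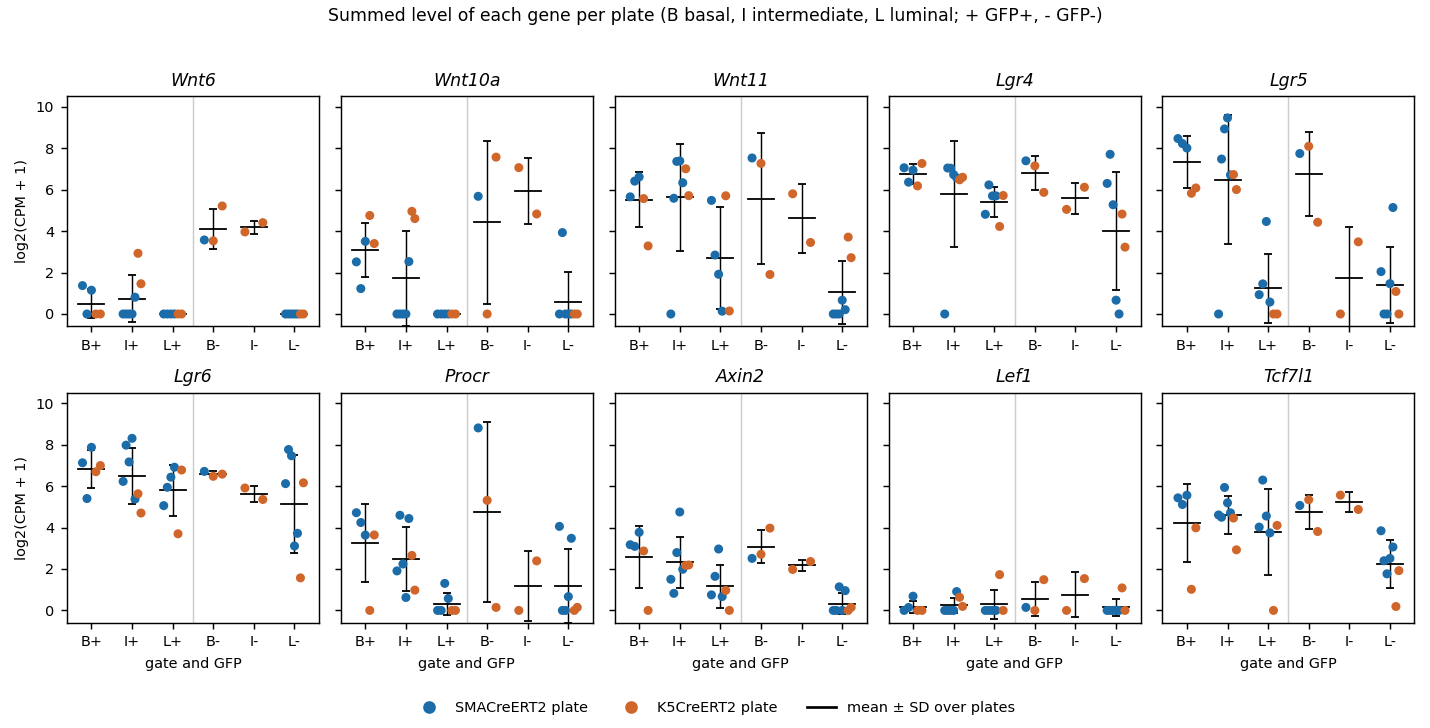
Level of the 10 genes in log2(CPM + 1), 1 panel per gene, for each gate and GFP state. Each point is the sum of 1 plate coloured by Cre line, and the bar and whiskers are the mean and SD over plates. The Lgr5 points of luminal cells, up to 21.1 CPM (GFP+) and 34.2 CPM (GFP-), lie under all basal GFP+ points and all intermediate GFP+ points but that of plate 1 (0 CPM), and Wnt6 and Wnt10a have luminal GFP+ points at 0 throughout.

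Among the ligands, Wnt10a, a canonical ligand of skin appendages and mammary epithelium, was read in GFP+ cells of the basal and intermediate gates and in none of the luminal gate. Its basal GFP+ level was 4.72, 1.34, 10.3, 25.9 and 9.55 CPM on plates 1, 3, 4, G and L, from 1 or 2 cells on each plate. The luminal GFP+ sums held no Wnt10a read in 54941151 reads over 6 plates. Every basal plate thus lay above every luminal plate. Taken against a floor of 3 reads over the group, the luminal level was at least 147.6-fold lower than the basal one (edgeR quasi-likelihood test, p = 0.00152, adjusted p = 0.108). This bound covers the counting of reads and not the sampling of cells. A Wnt10a read was seen in 7 of 100 basal and 0 of 120 luminal GFP+ cells. The 95% intervals of these shares, 2.86 to 13.9% and 0 to 3.03%, overlap. The bound was 90.6-fold without plate G and 94.8-fold without plate 4. In intermediate GFP+ cells Wnt10a was at 0 on plates 1, 2, 3 and 4, at 4.78 CPM on plate E, and at 29.97 and 23.3 CPM on plates G and L. The 2 K5CreERT2 plates were the highest and all shallower plates were at 0, where 3 reads would have given 0.407 to 2.31 CPM. A read was seen in 8 of 60 cells on plate E, 20 of 63 on plate G and 20 of 61 on plate L. Against the intermediate gate, luminal GFP+ cells were at least 338-fold lower (edgeR p = 0.00395, adjusted p = 0.271), or 212.49-fold without plate G. The bound pools plates that do not all hold both gates, and it too covers the counting of reads only. Of the 5 plates with both, luminal cells were the lower on 2, and both gates were at 0 on the other 3. The GFP- controls also held Wnt10a, at 50.2, 0 and 188.8 CPM in basal cells of plates E, G and L, the last from 1 cell, and at 132.5 and 27.4 CPM in intermediate cells of plates G and L. Luminal GFP- cells had it in 1 cell of plate 3 (20 reads, 14.2 CPM) and in no cell of the other 6 plates, but without the Dcpp1 filter plate 3 had 28.5 CPM and plate 2, with 5 cells, entered as the highest of the group, which moved the mean over plates from 2.03 to 18.9 CPM.

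Wnt6, another canonical ligand, lies 6193 bases from Wnt10a on chromosome 1 (Wnt6 at 74771892 to 74785322, Wnt10a at 74791516 to 74804179, GRCm38, both on the plus strand). Its basal GFP+ level was 1.59 CPM on plate 1 and 1.22 CPM on plate 4 and none on plates 3, G and L. Intermediate GFP+ cells had none on plates 1 to 4, then 0.752 CPM on plate E, 6.61 CPM on plate G and 1.75 CPM on plate L. Plate G was the highest, with reads in 10 of 63 cells. Without the Dcpp1 filter plate 2 stood above it at 11.6 CPM, and basal GFP+ cells of plate 2 had 20.9 CPM. The basal GFP+ mean over plates then moved from 0.56 to 3.93 CPM. Without that filter, luminal GFP+ cells of plate 2 held 1 Wnt6 read. With it, luminal cells, GFP+ or GFP-, had none on any plate. This put luminal GFP+ at least 51.97-fold under intermediate GFP+ (edgeR p = 0.0313, adjusted p = 0.498) and at least 15.3-fold under basal GFP+ (adjusted p = 0.474). These bounds cover the counting of reads and not the sampling of cells. They rest on few plates, since the first was 18.6-fold without plate G and the second 4.09-fold without plate 1 and 9.57-fold without plate 4. All GFP- basal sums held Wnt6 (10.9, 10.55 and 36.03 CPM on plates E, G and L), as did both GFP- intermediate sums (14.6 and 20.2 CPM), but only that of plate E rested on more than 1 cell. Over the 30 sums of the fit, Wnt6 and Wnt10a had a Pearson r of 0.73 (log2 CPM), the highest of any pair of members. The points share plates and depth.

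In single intermediate GFP+ cells, both ligands were read in 11 cells, out of 18 with Wnt6 and 48 with Wnt10a. These were 8 cells of plate G, where 80% of Wnt6 cells had Wnt10a against 22.6% of cells without Wnt6, and 3 cells of plate L, where the shares were 50% and 30.9%. Plate E had no cell with both.

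Wnt11, a ligand known mostly for beta-catenin-independent signalling, had the highest level per length of the 3 in basal GFP+ cells. It stood at 49.3, 84.04, 96.9, 46.5 and 8.74 CPM in basal GFP+ cells of plates 1, 3, 4, G and L, and intermediate GFP+ cells had 0 to 165.9 CPM with a median of 79.6 CPM over 7 plates. On 4 of the 5 plates with both gates the intermediate level was the higher one, and the exception was the 4-cell sum of plate 1. Luminal GFP+ cells had 43.7, 6.18, 2.78, 0.0982, 51.1 and 0.106 CPM on plates 1, 3, 4, 5, G and L, where 98% of the reads of plate 1 came from 1 cell. The luminal and basal plates overlapped, and neither the luminal against basal (log2 fold change -2.16, SE 1.58, edgeR adjusted p = 0.696) nor the luminal against intermediate difference (-2.93, SE 1.71, adjusted p = 0.648) passed the test. In luminal GFP- cells the highest plate had 12.1 CPM and 3 of 7 had none.

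Among the receptors, Lgr5 separated the gates most. Basal GFP+ cells had 352.5, 298.2, 256.3, 55.7 and 66.7 CPM on plates 1, 3, 4, G and L, and luminal GFP+ cells had 0.910, 1.74, 21.1, 0.491, 0 and 0 CPM on plates 1, 3, 4, 5, G and L. No luminal plate reached the lowest basal plate. The luminal values depended on the filter on the salivary gene Dcpp1, without which plates 3 and 5 had 20.4 and 12.02 CPM and the log2 fold change was -6.75 (edgeR adjusted p = 0.0740). With the filter, the log2 fold change was -7.29 (SE 1.90), with an unadjusted p of 0.00118 that did not pass the adjustment over all genes (edgeR adjusted p = 0.0978). Intermediate GFP+ cells had 0, 177.1, 486.5, 704.3, 103.7, 104.96 and 63.2 CPM on plates 1, 2, 3, 4, E, G and L. They were above the basal sum of the same plate on plates 3, 4 and G and below it on plates 1 and L, so no difference from basal cells was found (log2 fold change -0.40, SE 1.5, adjusted p = 1.00). Luminal against intermediate GFP+ gave -6.89 (SE 1.82, p = 0.00138, adjusted p = 0.183).

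After thinning every cell to 100000 reads, an Lgr5 read was seen in 73% of basal, 46.2% of intermediate and 10% of luminal GFP+ cells, with exact Clopper-Pearson 95% intervals of 63.2 to 81.4%, 39.5 to 52.97% and 5.27 to 16.8% (75%, 54.7% and 18.3% unthinned). These pooled shares mix plates with different numbers of cells in each gate. By Cre line and chase, the thinned basal, intermediate and luminal shares were 76%, 0% (of 4 cells) and 12.5% with SMACreERT2 at 1 week, 82.6%, 53.9% and 15.4% at 3 weeks, 75%, 84.2% and 15.7% at 4 weeks, and 36.4%, 37.1% and 0% with K5CreERT2. The luminal share was thus below the basal one at each, whereas the order of basal and intermediate shares was not the same throughout. GFP- basal cells had Lgr5 at 213.1, 271.9 and 20.5 CPM on plates E, G and L, the first 2 within the range of the GFP+ basal plates and the last below it, while GFP- intermediate cells had 0 and 10.2 CPM on plates G and L, where GFP+ intermediate cells had 104.96 and 63.2 CPM. This GFP+ to GFP- difference in the intermediate gate rests on 12 GFP- cells on 2 plates and was not tested. Luminal GFP- cells had 0 to 34.2 CPM with a median of 1.12 CPM over 7 plates, the highest from 2 cells of plate E, and did not differ from luminal GFP+ cells (log2 fold change -0.73, SE 1.84, adjusted p = 1.00).

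The basal GFP+ sums of the K5CreERT2 plates were the low Lgr5 sums of the basal gate. They were low in Myh11 on both plates and in Krt5 on plate L, but all 10 basal markers were read in both. In these sums 1 cell gave 64% of the Lgr5 reads on plate G and 83% on plate L. Without plate L the luminal against basal log2 fold change of Lgr5 was -6.95 (adjusted p = 0.248), without plate G -7.18 (adjusted p = 0.249), and on the SMACreERT2 plates alone -6.83 (adjusted p = 0.564). Within sequencing batch 1 it was -8.68, from 1 basal sum in a fit with 1 residual degree of freedom, so that spread between basal plates does not enter it and no p is given. Within batch 2 it was -5.32 (adjusted p = 0.227). In batch 3 the luminal GFP+ sums held no Lgr5 read, so the fitted value is no bound and is not given.

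Lgr4 was read in 85% of basal, 90.1% of intermediate and 63.3% of luminal GFP+ cells (78%, 79.8% and 54.2% after thinning). In the basal GFP+ gate it stood at 131.95, 81.2, 121.8, 71.5 and 152.6 CPM on plates 1, 3, 4, G and L. Luminal GFP+ cells had 27.1, 73.98, 50.95, 50.96, 17.7 and 51.6 CPM on plates 1, 3, 4, 5, G and L. The luminal value was the lower one on all 5 plates with both gates, as it was for Lgr5 and Wnt10a and for 4.27% of all genes tested, but the groups overlapped and the difference did not pass the test (log2 fold change -1.37, SE 1.18, edgeR adjusted p = 0.768). Intermediate GFP+ cells had 87.96 to 130.9 CPM on 6 plates and 0 on plate 1. Luminal GFP- cells ranged from 0 to 207.7 CPM, a wider span than any GFP+ group.

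Lgr6, the third R-spondin receptor, was read in all 3 GFP+ gates. Basal GFP+ cells had 138.5, 41.2, 232.9, 102.4 and 126.1 CPM on plates 1, 3, 4, G and L, with 91% and 100% of the reads of the last 2 from 1 cell each, and luminal GFP+ cells had 32.3, 60.5, 85.2, 119.2, 11.96 and 108.5 CPM. The groups overlapped (log2 fold change -1.15, SE 0.78, adjusted p = 0.650). The share of GFP+ cells with a read was 59.2% in the luminal, 49% in the basal and 30.9% in the intermediate gate after thinning. The luminal share was carried by plate 5 (83.8%), which has no other GFP+ gate. On plate 4 it was the lowest of the 3 gates, at 54.9% against 68.8% in basal and 84.2% in intermediate cells, and on plate 1 it was 37.5% against 58% in basal and 25% in intermediate cells. It was the highest of the 3 gates with SMACreERT2 at 3 weeks (38.5% against 26.1% in basal and 35.5% in intermediate cells) and with K5CreERT2 (36.4% against 27.3% and 20.2%).

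Procr, the protein C receptor, was low in the GFP+ gates. Basal GFP+ cells had 25.3, 17.9, 11.4, 0 and 11.5 CPM on plates 1, 3, 4, G and L, and luminal GFP+ cells had 1.47 CPM on plate 4, 0.491 CPM on plate 5 and none on the other 4 plates. All basal plates but G lay above the luminal ones (log2 fold change -5.58, SE 1.84, p = 0.00533, edgeR adjusted p = 0.190). The highest basal GFP+ value was on plate 1, where that sum carried 741.4 CPM of endothelial markers, against at most 7.72 CPM in the others. The part of these markers was not tested. The highest sum was that of the GFP- basal cells of plate E, at 446.5 CPM with 84% of its reads from 1 cell. In intermediate GFP+ cells 25 of the 31 cells with Procr also had Lgr5 (80.6%), beside 54.7% of all cells, pooled over plates of different depth.

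**Figure D2:**
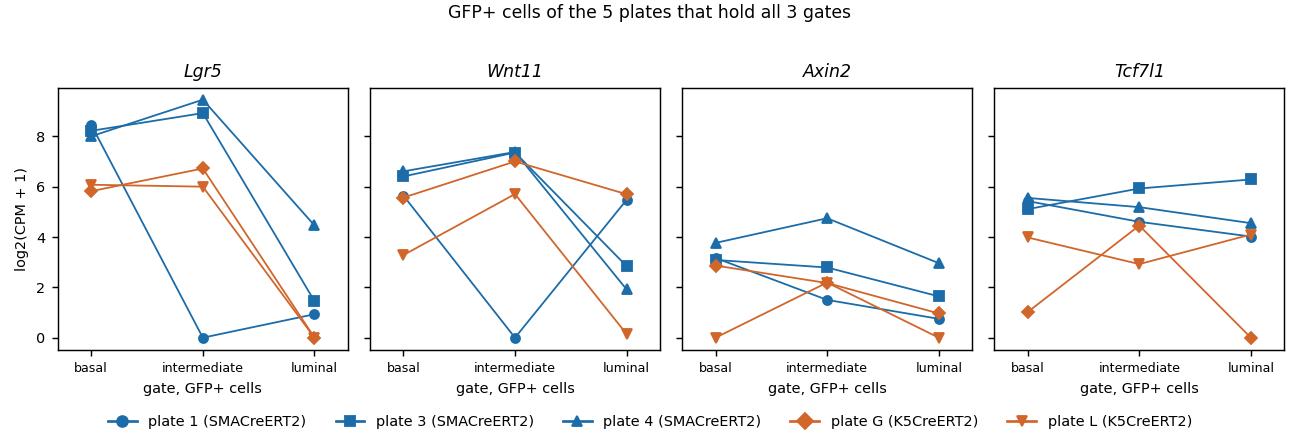
CPM on a log scale (log2 of CPM + 1) of Lgr5, Wnt11, Axin2 and Tcf7l1 in the basal, intermediate and luminal GFP+ gates of the 5 plates that hold all 3 gates, each line and marker 1 plate coloured by Cre line. The Lgr5 lines end at 1.74 CPM or less in the luminal gate on every plate but plate 4 (on plate 3 at 20.4 CPM without the Dcpp1 filter), and the Tcf7l1 lines do not fall together.

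Of the targets, Axin2, a scaffold of the beta-catenin destruction complex and a feedback target of canonical Wnt signalling, was low in all gates. In the basal GFP+ gate the level was 8.01, 7.52, 12.6, 6.30 and 0 CPM on plates 1, 3, 4, G and L. Intermediate GFP+ cells had 0.770 to 25.9 CPM with a median of 3.51 CPM. Luminal GFP+ cells had 0.682, 2.12, 6.80, 0.589, 0.952 and 0 CPM on plates 1, 3, 4, 5, G and L. The luminal value was under the intermediate one on all 5 plates with both, which held for 3.00% of all genes tested. On plate 1 this order rested on 4 reads in the intermediate and 3 reads in the luminal sum. Plate 4 was the highest of its group in all 3 gates. Neither luminal against basal (log2 fold change -2.47, SE 1.48, adjusted p = 0.587) nor luminal against intermediate (-1.93, SE 1.43, adjusted p = 0.772) passed the test. In basal GFP+ cells 42 of the 50 cells with Axin2 also had Lgr5, beside 75 of all 100. Luminal GFP- cells had 0 to 1.201 CPM, below the GFP+ value on 5 of 6 plates with both (log2 fold change 2.72, SE 1.55, adjusted p = 0.745).

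Lef1, the TCF/LEF factor that is itself a Wnt target, was at or near 0 everywhere. It reached at most 0.608 CPM in basal, 0.879 CPM in intermediate and 2.31 CPM in luminal GFP+ cells, the last from 1 cell of plate G. A read was seen in 2.00%, 4.04% and 0.833% of GFP+ cells of the 3 gates, and no fold change is given.

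Tcf7l1, a TCF factor known chiefly as a repressor, did not separate basal from luminal GFP+ cells. The basal GFP+ level was 42.2, 33.6, 46.1, 1.03 and 14.8 CPM on plates 1, 3, 4, G and L, and luminal GFP+ cells had 15.2, 77.3, 22.5, 12.4, 0 and 16.2 CPM on plates 1, 3, 4, 5, G and L. The groups overlapped, with plate 3 highest in the luminal gate and plate G lowest in both (log2 fold change -0.40, SE 0.98, adjusted p = 0.971). Luminal GFP- cells had 13.3, 4.27, 2.40, 4.70, 7.34, 0.141 and 2.79 CPM on plates 1, 3, 4, 5, E, G and L. The GFP+ luminal value was the higher one on 5 of 6 plates with both states, the exception being plate G, and the log2 fold change was 2.04 (SE 0.96, p = 0.0426, edgeR adjusted p = 0.682). The median of all genes was itself 0.39 in this comparison, which leaves 1.65 for Tcf7l1 relative to it. The share of luminal cells with a read after thinning was 34.2% of GFP+ and 12.8% of GFP- cells. Markers of hormone receptor-positive luminal cells were set side by side in the 2 states without a test. The 10 markers summed to 2165, 55.6, 404.1, 140.2, 1762 and 549.5 CPM in GFP+ cells of plates 1, 3, 4, 5, G and L and to 2128, 169.96, 127.7, 3577, 8529 and 1914 CPM in GFP- cells of the same plates. They were the higher in GFP- cells on plates 3, 5, G and L, with Prlr the most abundant on the last 3 (2305, 3077 and 622.9 CPM) and Tnfsf11 at 0 in all luminal GFP- sums. Their part in the differences between luminal GFP+ and GFP- cells was not tested.

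With edgeR on all 30 sums, no member passed an adjusted p of 0.05. In luminal against basal GFP+ cells 0.647% of 19796 genes passed (55 higher and 73 lower), in luminal against intermediate 28 (6 higher and 22 lower, 0.141%), in intermediate against basal 0 and in luminal GFP+ against GFP- 5, all higher (0.0253%). At an unadjusted p under 0.05, 3 of the 10 members, Lgr5, Wnt10a and Procr, were lower in luminal than in basal GFP+ cells (6.31% of all genes), and 3, Lgr5, Wnt10a and Wnt6, were lower in luminal than in intermediate GFP+ cells (6.31%). No member met it in intermediate against basal GFP+ cells, where 639 genes did (3.23%), and Tcf7l1 alone met it between luminal GFP+ and GFP- cells (6.15% of all genes were higher at that level). Every luminal plate lay under every basal plate for Lgr5 and Wnt10a, and for 1.15% of all genes.

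The sign of the fitted change was negative for all 9 members other than Lef1 in luminal against basal GFP+ cells (median -2.47, beside 51.2% negative and a median of -0.03 over all genes) and in luminal against intermediate GFP+ cells (median -2.93, beside 53% and -0.08). The 2 comparisons share the luminal sums. Because the members were chosen with earlier results of these data known, their shared signs are a description and not a test. Levels pooled over reads, which weight plates by depth, were not lower in luminal than in intermediate GFP+ cells for Lgr6 (79.1 and 47.9 CPM) and Tcf7l1 (21.1 and 18.6 CPM). Intermediate against basal gave 6 of 9 negative signs and a median of -0.40 (47.8% and 0.05 over all genes). Luminal GFP+ against GFP- gave 3 of 8, Wnt6 having no read in either, and a median of 0.27 (34.9% and 0.39). With DESeq2, which called 1699 genes (8.58%) in luminal against basal, Lgr5, Wnt10a and Procr passed the adjusted threshold. In luminal against intermediate (1152 genes, 5.82%) Lgr5 and Wnt10a passed it, and in luminal GFP+ against GFP- (1205 genes, 6.09%) Wnt10a. A further comparison added after the values were seen, basal GFP+ against basal GFP- (both states on plates G and L only), called 1 gene (0.00505%) and no member, and DESeq2 called 590 genes (2.98%). All 9 members other than Lef1 had a negative sign in it (median -0.86, beside 41.3% negative and a median of 0.26 over all genes). The 2 plates with both states did not share that direction, since Lgr6 was the higher in GFP+ cells on both (102.4 and 126.1 CPM against 87.7 and 94.5 CPM), Wnt6 alone of the 9 was lower on both, and the other 7 were lower on one plate and higher on the other. The Lgr6 values of GFP+ cells rested mostly on 1 cell of each plate. The share of cells went the other way, with an Lgr6 read in 3 of 11 GFP+ and 7 of 11 GFP- cells. No member had an unadjusted p under 0.05 in it (4.32% of genes did), nor in intermediate against basal, where DESeq2 called 384 genes (1.94%) and no member.

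**Figure D3:**
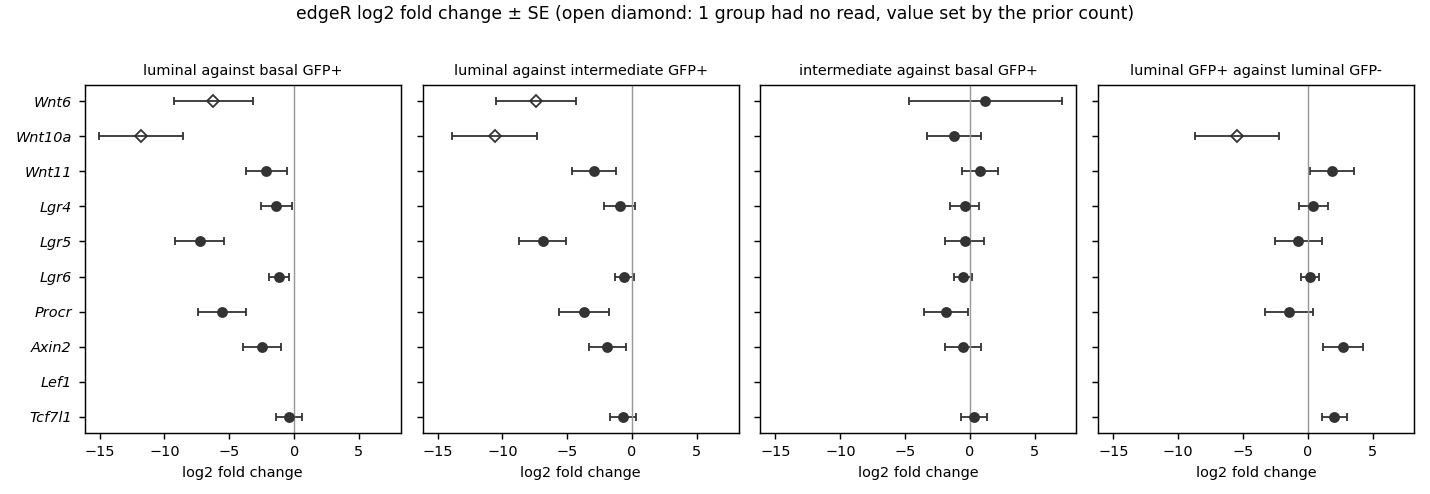
Fitted log2 fold change with its standard error (edgeR) of 9 members in 4 comparisons, Lef1 being left out for its counts. Open diamonds mark values where a group had no read, which are not bounds. Lgr5 lies at -7.29 and -6.89 in the comparisons of luminal with basal and intermediate GFP+ cells and at -0.40 and -0.73, within 1 standard error of 0, in the other 2.

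Cre line and chase differ between plates, and only the 3-week chase has more than 1 plate, so their values stand side by side without a test. Pooled over plates, Lgr5 in basal GFP+ cells was 352.5 CPM at 1 week (50 cells), 342.9 CPM at 3 weeks (23 cells) and 256.3 CPM at 4 weeks (16 cells) with SMACreERT2, and 62.2 CPM with K5CreERT2 (11 cells). The share of these cells with an Lgr5 read was 80%, 82.6% and 75% against 36.4%. In intermediate GFP+ cells Lgr5 was 0 at 1 week (4 cells), 128.8 CPM at 3 weeks and 704.3 CPM at 4 weeks with SMACreERT2, and 83.05 CPM with K5CreERT2. Most reads of the 3-week SMACreERT2 value came from the deeper plate E (103.7 CPM), and plates 2 and 3 were higher. The SMACreERT2 basal values lay close together over the chase, and the intermediate ones did not. The K5CreERT2 basal cells were the ones with low Myh11 and, on plate L, low Krt5, with all basal markers of the list read. Wnt10a in intermediate GFP+ cells was 26.5 CPM with K5CreERT2 and 4.41 CPM with SMACreERT2 at 3 weeks, in 32.3% of cells of plates G and L and 10.53% of 76 cells. On plate E, of the same sequencing batch as G and L, it was 4.78 CPM.

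**Figure D4:**
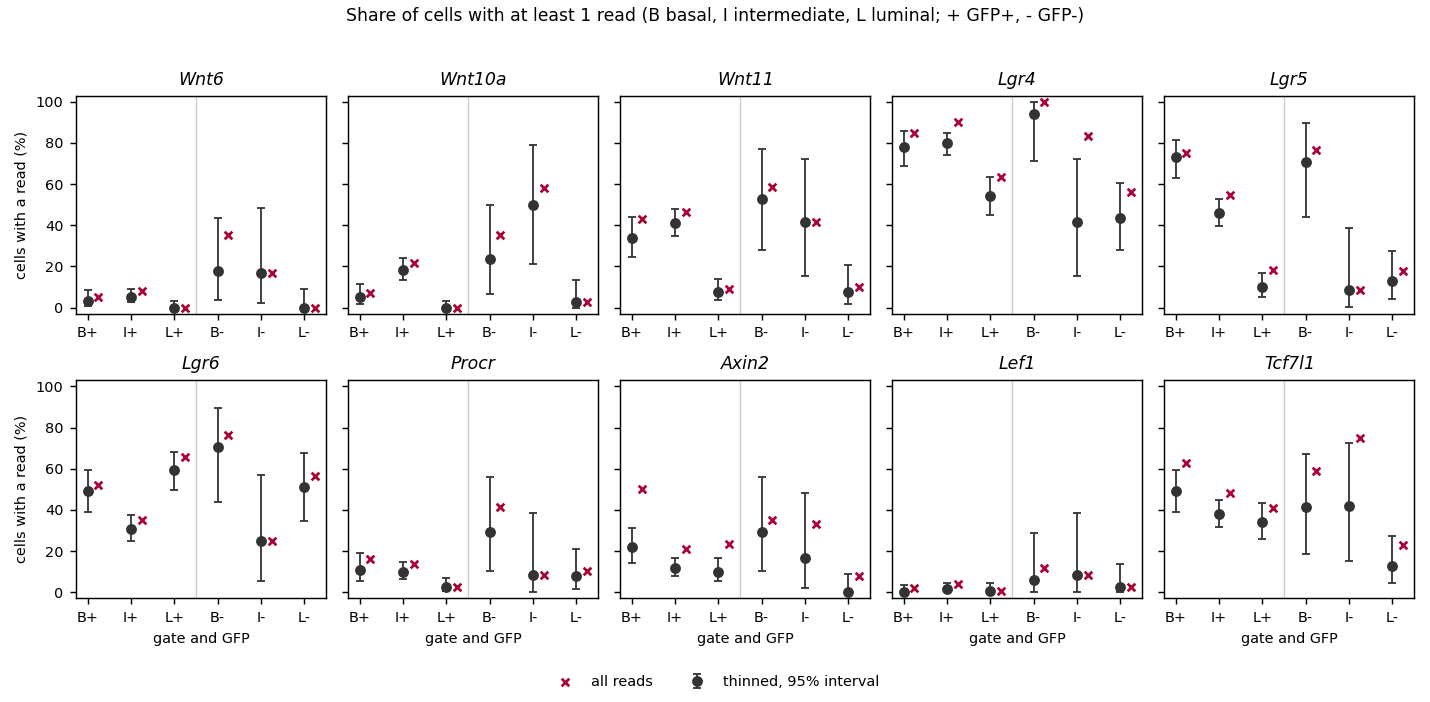
Share of kept cells with at least 1 read of each gene, in percent, by gate and GFP state, after thinning to 100000 reads per cell (points with exact 95% intervals) and with all reads (crosses). Lgr5 drops from basal to luminal GFP+ cells, Lgr4 stays above 40% in each group, and Wnt6 and Wnt10a have no luminal GFP+ cell.

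Shared detection was looked at for some pairs of genes in single GFP+ cells of the intermediate gate. On plates E, G and L, Wnt11 was read in 67.6%, 64.9% and 55% of cells with Lgr5 and in 30.8%, 46.2% and 14.6% of cells without it. Wnt10a went the other way on plate G (16.2% of cells with Lgr5 and 53.8% of those without) and differed less on plates E (11.8% and 15.4%) and L (30% and 34.1%). Krt79, examined after its level was seen, was read in 35.3%, 35.1% and 50% of Lgr5 cells and in 61.5%, 73.1% and 85.4% of the others. Cells of a plate are not replicates and differ in depth, so these shares are a description. The median cell had reads of 4 members in basal, 3 in intermediate and 2 in luminal GFP+ cells, and of 5, 4 and 2 in the GFP- gates. After thinning the medians were 3, 3 and 2 in GFP+ and 4, 2.5 and 1 in GFP- cells, so that basal and intermediate GFP+ cells had the same median.

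Of 77 further Wnt pathway genes in the files, 59 were tested, and those past the threshold were both secreted inhibitors. Sfrp1, which binds Wnt ligands, fell from basal to luminal GFP+ cells (log2 fold change -6.28, SE 1.34, edgeR adjusted p = 0.0319) and from intermediate to luminal (-7.09, SE 1.39, adjusted p = 0.0413). It stood at 94.6, 477.6, 58.4 and 74.9 CPM in basal GFP+ cells of plates 1, 3, 4 and G and between the values of plates 1 and 3 on plate L, at 118.6 to 524.1 CPM in the intermediate ones and at 0 to 16.2 CPM in the luminal ones, without overlap. Wif1, another ligand-binding inhibitor, fell from basal to luminal (log2 fold change -7.64, SE 1.75, adjusted p = 0.0421), from 46.9, 0, 78.95, 29.8 and 4.68 CPM to 0 on all luminal plates but plate 1 (1.59 CPM). Its level was 0 to 9.35 CPM in intermediate GFP+ cells and 192.9, 329.2 and 128.4 CPM in basal GFP- cells, above every basal GFP+ plate, a difference that did not pass the test (-2.80, SE 1.76, adjusted p = 1.00).

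By list, counted in luminal against basal GFP+ cells, 0 of 7 other ligands, 0 of 16 receptors and co-receptors, 0 of 5 genes of the R-spondin axis and ligand secretion, 2 of 5 secreted inhibitors (both lower), 0 of 19 transduction and nuclear genes and 0 of 7 feedback and other targets passed. Over all genes tested, 0.647% passed in luminal against basal. In luminal against intermediate the count was 1 of 5 inhibitors, beside 0.141% of all genes. No list had a call in intermediate against basal or luminal GFP+ against GFP- (0% and 0.0253% of all genes). The most abundant gene of each list per length was Wnt5b, Fzd7, Wls, Dkk3, Ctnnb1 and Myc in that order. Wnt5b, a beta-catenin-independent ligand, was 88.9 ± 72.5 CPM in luminal (n = 6) and 15.5 ± 30.8 CPM in basal GFP+ cells (n = 5), a log2 difference of 4.10 (SE 1.82, adjusted p = 0.399). Fzd7, a Frizzled receptor of basal cells, was 41.4 ± 18.2 CPM in luminal and 201.2 ± 93.2 CPM in basal GFP+ cells. Wls, which carries Wnt ligands to the surface, was 93.8 ± 44.03 and 181.97 ± 57.9 CPM, Dkk3 19.4 ± 15.4 and 210.1 ± 95.6 CPM, Ctnnb1 (beta-catenin) 526.7 ± 129.5 and 316.8 ± 88.4 CPM, and Myc 341.0 ± 243.7 and 651.1 ± 368.1 CPM. None of these 6 passed the test.

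**Figure D5:**
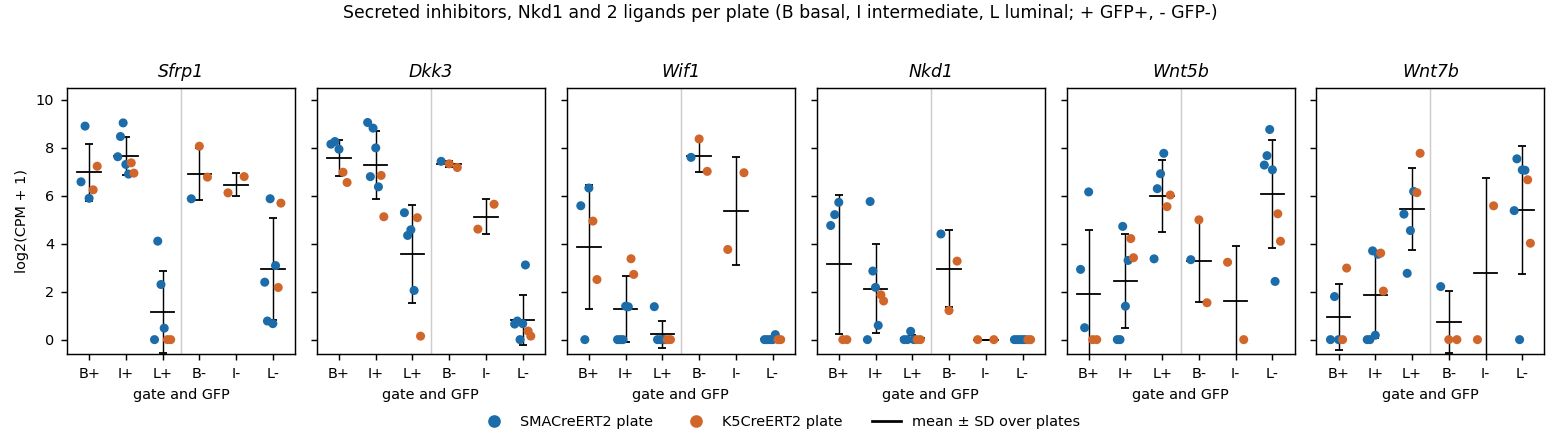
Level in log2(CPM + 1) of Sfrp1, Dkk3, Wif1, Nkd1, Wnt5b and Wnt7b by gate and GFP state, each point 1 plate coloured by Cre line, with mean and SD. Sfrp1 is at 0 to 16.2 CPM in luminal GFP+ sums and at least 58.4 CPM in every basal and intermediate GFP+ sum, and Wnt5b and Wnt7b are highest in the luminal gates.

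For each member, the genes with the most similar pattern were taken as the 3 highest Pearson r of log2 CPM over the 30 sums, among 19796 genes. For Lgr5 they were 1500015O10Rik (0.90), Layn (0.89) and Pcsk5 (0.87), for Lgr4 Mpdz (0.90), Asph (0.87) and Tbc1d4 (0.83), for Lgr6 Marc2 (0.81), Emid1 (0.80) and Serpinh1 (0.76), and for Procr Eln, Chst2 (0.73 each) and Hspg2 (0.71). For Wnt6 they were Capn6 (0.89), Fbln7 (0.86) and Wif1 (0.84), for Wnt10a Slc2a4 (0.84), Bnc2 (0.78) and Egr2 (0.77), and for Wnt11 Gsn (0.86), Lrp1 (0.84) and Adgrl1 (0.82). Axin2 was most like Il17b (0.82), Smarcd3 and the smooth muscle actin gene Acta2 (0.81 each), and Tcf7l1 most like Emid1 (0.76), Frmd4a (0.75) and Pcdh18 (0.74). Those of Lef1 rest on values near 0 and are not given. Between members, the highest r after the ligand pair were those of Lgr5 with Procr (0.70), Wnt11 (0.65) and Axin2 (0.62).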

How the data were processed

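Members and gene lists were chosen with earlier results of these data known. Single cells were index-sorted and sequenced by Smart-seq2 with Nextera XT libraries (50 bp reads, single-end in batches 1 and 2 and paired-end in batch 3). Per the submitters' processing notes and the study's methods, reads were trimmed (Trim Galore 0.6.5), aligned to GRCm38 (STAR 2.7.7a) and counted per gene by the authors (HTSeq 0.13.5), so the deposited values are raw read counts per gene and cell; the strand setting is not given in the sources used here, and reads of overlapping genes may be shared or lost. R 4.3.0 and Seurat 4.3.0.1 were used by the authors downstream.

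Of 840 deposited cells, 96 of a repeat run of plate 5 were left out. As in the study, cells were kept with at least 100000 reads, 1400 genes, 2 Epcam reads, at most 10% mitochondrial reads and at most 1 read of Dcpp1, a salivary gene (688 cells without this last filter); no doublet caller was run. Counts were summed by plate, gate and GFP state where at least 3 cells remained (30 sums of 1298589 to 97764884 reads, 6 groups). The main test was edgeR 4.0.16 (R 4.3.3, limma 3.58.1; quasi-likelihood F test, TMM, low-count filter, plate as block, 17 residual degrees of freedom, two-sided, Benjamini-Hochberg over 19796 genes). CPM is reads per 1000000 reads on genes, and RPKM divides it by exon length in units of 1000 bases (GENCODE annotation of GRCm38). Shares of cells carry exact Clopper-Pearson 95% intervals. Alternatives (22) included DESeq2 1.42.0, no TMM, no replicate block, no low-count filter, leaving out plates, single batches and thinned cells, 2 of which were chosen after seeing the data. Groups that share a plate were paired by it, since the labels give each cell's plate and each plate its batch. Named genes were the 10 members, pathway genes past the threshold, the most abundant gene of each list and the 3 most similar genes per member; Krt79 and Wnt7b, Nkd1 and Wif1 outside the called comparison were chosen after their values were seen. On plates 1, 2, 3 and 4 the study's own table lists intermediate and luminal GFP+ cell numbers the other way round from the labels, which were used; luminal markers on plates 1, 3 and 4 are given with the gates. Scripts were tested on simulated data. Python 3.11.15, pandas 2.3.3, numpy 2.4.6, scipy 1.17.1 and matplotlib 3.10.9 were used for tables and figures.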

Additional observations from a re-analysis of the deposited data

Results flagged for a closer look

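Among 37 groups of 4 to 10 plates tested for a plate far from the others by Dixon's criterion, 13 held one. Chance gives about 1 in 20 groups where values are normally distributed, which was not tested and does not hold for genes with most plates at 0. In intermediate GFP+ cells they were Lgr4 on plate 1 (0 CPM, 4 cells), Wnt6 on plate G (6.61 CPM) and Axin2 on plate 4 (25.9 CPM). In luminal GFP+ cells they were Lgr5 (21.1 CPM), Procr (1.47 CPM) and Axin2 (6.80 CPM), all on plate 4, which has the most luminal GFP+ cells and the highest sum of basal markers among the luminal GFP+ sums (1932 CPM, all 10 read, their part in these values not tested), Lef1 on plate G (2.31 CPM) and Tcf7l1 on plate 3 (77.3 CPM). In luminal GFP- cells they were Lgr4 (207.7 CPM) and Wnt10a (14.2 CPM) on plate 3, Lgr5 on plate E (34.2 CPM) and Lef1 on plate G (1.12 CPM). In basal GFP+ cells it was Lef1 on plate 4 (0.608 CPM).

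Wnt10a was lower in intermediate than in basal GFP+ cells on all 3 SMACreERT2 plates with both gates (mean difference -5.47 CPM) and higher on both K5CreERT2 plates (8.90 CPM). This difference was not tested, and Cre line, batch and depth cannot be told apart in it.

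The repeat run of plate 5, left out of all comparisons, gave 67 luminal GFP+ cells that passed the filters against 37 in the first run. It held Lgr4 at 33.8 CPM (50.96 CPM in the first run), Lgr5 at 14.4 CPM (0.491), Lgr6 at 135.1 CPM (119.2), Wnt11 at 2.49 CPM (0.0982), Axin2 at 0.934 CPM (0.589) and Tcf7l1 at 12.2 CPM (12.4). Without the Dcpp1 filter the first run had Lgr5 at 12.02 CPM and Wnt11 at 1.41 CPM in 81 cells, so that the cells kept, and not the run alone, differ between these values.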

How the results depend on the processing

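Of 1031 refitted log2 fold changes of members (50 fits of a member in a comparison under 22 alternatives), 1018 kept their side of the threshold, 12 newly passed it (3 of them in batch 1) and 1 newly passed it with the other sign. In all, 97 values of 31 fits had the other sign, 96 of them passing under neither setting. In luminal against basal they were 4 of Lef1 (up to 7.37 in batch 3), and in luminal against intermediate 4 of Lef1, 5 in batch 1 (Lgr4, Lgr5, Lgr6, Wnt10a and Wnt11) and Wnt10a in batch 2 (0.12), with the rest in the other 3 comparisons, Lgr5 in intermediate against basal among them (6 alternatives). The one that passed was Lgr4 in luminal against intermediate GFP+ cells within sequencing batch 1 (12.90), where the 4-cell intermediate sum of plate 1 had no Lgr4 read. For Lgr5 in luminal against basal GFP+ cells the newly passing values were -7.67 with DESeq2, -6.40 in thinned cells, -7.75 with only the 2 groups in the fit and -8.68 in batch 1 (1 basal sum, 1 residual degree of freedom, so no test of the spread between basal plates), and for luminal against intermediate -7.31 with DESeq2 and -5.89 in thinned cells. The other newly passing values in batch 1 were those of Lgr4 and Lgr5 in intermediate against basal GFP+ cells. There the 4-cell intermediate sum of plate 1 had no read of either gene, and the fit had 1 residual degree of freedom. The cause was not tested where none is named.

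As a percent of the genes tested in each fit, which differ in number (a shift was judged as over 1.5 times on the number called), the calls in luminal against basal GFP+ cells (0.647%) came to 8.58% with DESeq2, 0.614% of the larger number tested without the low-count filter, 1.37% without the Dcpp1 filter, 1.06% with 5 cells or more per sum, 3.10% in thinned cells, 0.0830% in batch 2, 0.122% in batch 3, 0.160% on the SMACreERT2 plates and 0.206% to 0.637% leaving out 1 plate (0.206% without plate G, 0.210% without 3, 0.217% without L, 0.230% without 4 and 0.410% without 1). In intermediate against basal (0%) they came to 1.94% with DESeq2, 0.0109% without the low-count filter and 4.75% in batch 1. In luminal against intermediate (0.141%) they came to 5.82% with DESeq2, 0.215% without the low-count filter, 0.378% without the Dcpp1 filter, 0.348% with 5 cells or more, 1.07% in thinned cells, 0.00817% with only the 2 groups, 6.91% (1 residual degree of freedom), 0.0208% and 0.0945% in batches 1, 2 and 3, 0.222% without 2 plate 1 sums, 0.0598% on the SMACreERT2 plates and 0.0410% to 0.185% leaving out 1 plate (the number fell over 1.5 times without plate 3, 4, 5, E, G or L). In luminal GFP+ against GFP- (0.0253%) they came to 6.09% with DESeq2, 0.0462% without the low-count filter, 0.0129% per Cre line and chase, 0.0144% without the Dcpp1 filter, 0.0497% with 5 cells or more, 0% with only the 2 groups, 0.412%, 0.0969% and 0.00556% in batches 1, 2 and 3, and 0% (without plate 3, 4 or L) to 0.0667% (without plate 1) leaving out 1 plate, with plates E and G also moving the number over 1.5 times. In basal GFP+ against GFP- (0.00505%) they came to 2.98% with DESeq2, 0% per Cre line and chase, in thinned cells and with only the 2 groups, and 0% (without plate 4, G or L) to 0.00516% leaving out 1 plate. The SMACreERT2 setting and the one without 2 plate 1 sums were chosen after seeing the data. The cause of these shifts was not tested.

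With no replicate block for plate, the percentages in the 5 comparisons in the order above were 0.717%, 0%, 0.354%, 0.0303% and 0.00505%, and no member's call changed.

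Without the Dcpp1 filter, mean levels moved by more than 1 SD for Wnt6 in basal (3.93 CPM) and luminal GFP+ cells (0.00853 CPM) and for Wnt10a (18.9 CPM) and Tcf7l1 (10.3 CPM) in luminal GFP- cells. Thinned to 100000 reads, shares of cells moved beyond their interval for Lgr4 in intermediate GFP+ (79.8%) and GFP- cells (41.7%), Lgr5 in intermediate (46.2%) and luminal GFP+ cells (10%), Axin2 in basal (22%), intermediate (11.7%) and luminal GFP+ cells (10%) and luminal GFP- cells (0%), Lef1 in basal (0%) and intermediate GFP+ cells (1.79%), and Tcf7l1 in basal (49%) and intermediate GFP+ (38.1%) and intermediate GFP- cells (41.7%). The depth of the shallower batches limits what can be read of Wnt6, Wnt10a and Lef1, where 1 or 2 cells often gave all reads.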

Other observations

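Of the 4 R-spondins, the ligands of the Lgr receptors, Rspo2, Rspo3 and Rspo4 were at or near 0 in every group. Rspo1 averaged 10.4 ± 12.6 CPM in luminal GFP+ cells (SD, n = 6 plates) and 0.172 ± 0.454 CPM in luminal GFP- cells (n = 7), and it was chosen here after its values were seen. Wnt7b, a ligand of luminal cells chosen in the same way, averaged 70.4 ± 76.4 CPM in luminal GFP+, 86.8 ± 69.4 CPM in luminal GFP- and 1.88 ± 3.01 CPM in basal GFP+ cells (n = 5), with a log2 difference between luminal and basal GFP+ of 6.65 (SE 1.82, edgeR adjusted p = 0.102). Nkd1, a feedback inhibitor of Wnt signalling, had 26.1, 36.05 and 51.9 CPM in the basal GFP+ cells of plates 1, 3 and 4 and 0 on plates G and L, and in luminal GFP+ cells it was at 0 except on plate 4 (0.272 CPM).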
